A study of Mus musculus with 6 samples.

Results

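The transcription factors that give macrophages their identity were followed in cells washed from the airspaces of mice. They are Spi1, Cebpa, Cebpb, Bhlhe40, Bhlhe41, Maf, Irf8, Bach2 and Runx1. They were taken by gene symbol, without regard to their level, and all 9 were found among the 48795 genes of the deposited count table. The libraries are 6, named CD170, CD171, CD174, CD176, CD177 and CD178, each from bronchoalveolar lavage (BAL) cells of wild-type C57BL/6 mice aged 8 to 12 weeks. In the study, animals of both sexes were given saline or 100 ng/kg of cadmium chloride by the intratracheal route, and their lungs were lavaged on day 7. The labels used here give no library an exposure or a sex, so no group comparison was made and no p-value is given. Values are given library by library, and the 6 libraries are not treated as replicates of a condition.

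Spi1 encodes PU.1, an ETS-family factor that binds myeloid enhancers together with the C/EBP proteins, leucine zipper factors encoded by Cebpa and Cebpb, while RUNX1 acts with them during blood cell formation and IRF8 directs monocyte and dendritic cell development. Alveolar macrophages, which live in the airspace and clear surfactant, maintain themselves by local division. In mice the basic helix-loop-helix repressors Bhlhe40 and Bhlhe41 sustain this self-renewal and keep Maf low, and the MAF protein encoded by Maf holds macrophage division back. Bach2 is a repressor in B and T cells that mouse alveolar macrophages also need for normal lipid handling.

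Depth ran from 7732244 counts in genes (CD174) to 23599369 (CD178). CD174 and CD171 stood apart: 25.0% and 16.6% of their counts were assigned to no annotated feature, against 6.49 to 7.29% in the other libraries. The transcripts of 4 genes, CT010467.1, Gm26917, Lars2 and Gm23935, took 10.8% of gene counts in CD174 and 4.29% in CD171, against 0.546 to 1.09% elsewhere. Results that rest on these libraries are therefore also given without them. The summed level of 10 alveolar macrophage markers varied from 27950 CPM in CD171 to 34340 CPM in CD177. CPM are read counts per 1000000, scaled between libraries by edgeR's trimmed mean of M-values. None of the 10 markers was absent from any library. Bulk counts cannot tell fewer cells of a type from less RNA per cell.

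The 9 factors fell into an abundant set of 7 and a scarce pair. Together they took 0.248 to 0.312% of gene counts. Medians over the 6 libraries were 843.3 CPM for Cebpb, 594.4 for Spi1, 490.3 for Cebpa, 275.1 for Bhlhe40, 238.8 for Runx1, 141.3 for Bhlhe41 and 128.8 for Irf8. Maf and Bach2, by contrast, had medians of 1.55 and 1.44 CPM. Every one of the 7 abundant factors stayed at or above 91.6 CPM in each library, and neither Maf nor Bach2 rose above 2.47 CPM in any.

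**Figure D1:**
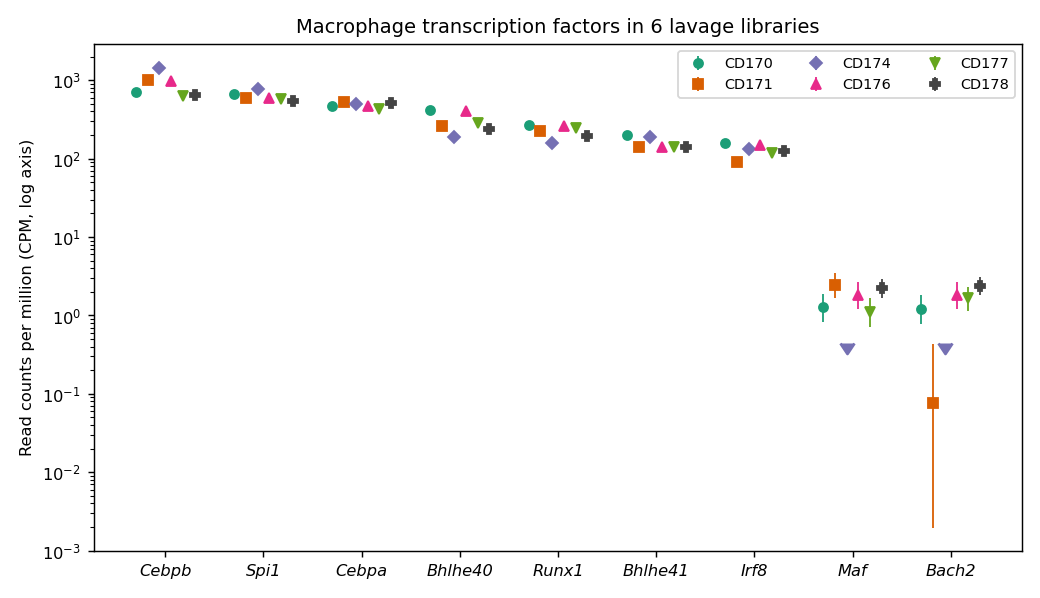
Level of each transcription factor in each of the 6 lavage libraries, in CPM on a log axis; symbols are libraries, and vertical lines, drawn for libraries with counts, are exact 95% Poisson intervals of counting error only. A downward triangle without a line stands for 0 counts in CD174, with its flat edge at the level of 3 counts (0.447 CPM). The 7 abundant factors lie at 91.6 CPM or higher and Maf and Bach2 at 2.47 CPM or lower.

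Levels of different genes were compared per length, as transcripts per 1000000 (TPM, counts divided by the union of the gene's annotated exons and scaled to the same total in each library). By median TPM the order was Cebpb (1269), Spi1 (572.4), Cebpa (487.9), Bhlhe40 (158.2), Bhlhe41 (57.3), Runx1 (51.5), Irf8 (48.8), Maf (0.516) and Bach2 (0.416). Cebpb was above Spi1, Spi1 above Cebpa, Cebpa above Bhlhe40 and Bhlhe40 above Bhlhe41 in 6 of 6 libraries. Bhlhe41, Runx1 and Irf8 lay close together: Bhlhe41 was above Runx1 in 5 libraries and Runx1 above Irf8 in 3, and per longest annotated transcript Runx1 (83.4 TPM) and Irf8 (78.3 TPM) were above Bhlhe41 (49.6 TPM). The order of these 3 factors is thus not set by these data, and neither is that of Maf and Bach2, where Maf was above in 4 libraries. Cebpb ranked between place 47 and place 100 among the 12627 genes that passed the count filter (10 counts or more in 3 libraries or more), Spi1 between 181 and 251, and Cebpa between 237 and 312. Irf8 ranked between 2153 and 3378. TPM of a gene was not compared between libraries, since the 4 transcripts named above took 49.3% of all TPM in CD174, 30.9% in CD171 and 4.66 to 9.08% elsewhere.

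Among the lineage factors, Spi1 (ENSMUSG00000002111, chromosome 2, 91082390 to 91115756, GRCm38, plus strand) was at 782.7 CPM in CD174, 663.7 in CD170, 594.4 in CD171, 594.4 in CD176, 574.4 in CD177 and 536.7 in CD178. CD174 was the highest library, and the other 5 lay between 536.7 and 663.7 CPM. Its log2 range, the difference in log2 CPM between the highest and the lowest library, was 0.54, and 0.31 without CD174. By total counts alone CD174 (679.8 CPM) hardly exceeded CD170 (673.9 CPM).

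Cebpa (ENSMUSG00000034957, chromosome 7, 35119293 to 35121928, plus strand) varied little. It was at 535.8 CPM in CD171, 511.2 in CD178, 504.3 in CD174, 476.2 in CD176, 472.5 in CD170 and 430.5 in CD177. Its highest library was 1.24 times its lowest, with a log2 range of 0.32, smaller than that of the other 8. Spi1 was as steady by total counts (0.295 for Spi1 and 0.296 for Cebpa) and steadier without CD174 (0.31 and 0.33), and without CD177 the range of Cebpa was 0.18. The median log2 range of the 1924 genes with a median over 100 CPM was 0.58.

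Cebpb (ENSMUSG00000056501, chromosome 2, 167688915 to 167690418, plus strand), the C/EBP protein induced in inflammation, varied more. It was at 1447 CPM in CD174, 996.2 in CD171, 970.2 in CD176, 716.3 in CD170, 657.6 in CD178 and 625.0 in CD177. CD174 was highest, 2.31 times CD177, and CD171 and CD176 lay between it and a lower trio. The log2 range was 1.21, larger than that of the other abundant factors, but 0.93 by total counts and 0.68 without CD174, where Bhlhe40 had 1.40 and 0.82. It was 0.63 without CD171 and CD174. The summed CPM of 8 lung epithelial markers was 3058 in CD174, 567.5 in CD178, 491.2 in CD176, 277.1 in CD171, 200.4 in CD170 and 191.8 in CD177, so CD174 was highest for both, while CD178 was second for the markers and second lowest for Cebpb. Of the 8 markers Cdh1 varied little, at 70.9 to 85.3 CPM, and was a large part of the sums in CD170 (84.7 CPM) and CD177 (72.9 CPM). The part of epithelial material in the Cebpb level was not tested. Cebpb shares 312 of its exon bases, 20.7%, with Tmem189 on the opposite strand. With the strand setting of the counting not given in the sources used here, reads from these bases are uncertain.

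The RefSeq promoter windows of both C/EBP genes, from 250 bases before to 50 bases after the annotated start, are shown because the ranges of this pair differed (0.32 for Cebpa and 1.21 for Cebpb). Capitals mark TATAAA in the sense direction, the only motif of those searched that either window held. It lies 30 bases before the annotated start of Cebpa and 21 bases after that of Cebpb, and was held by 8.32% of 32851 windows of 300 bases. The windows are chr7:35119043-35119342 and chr2:167688665-167688964, both on the plus strand of GRCm38.p6, with GC contents of 67.3% and 80.7%.
Cebpa: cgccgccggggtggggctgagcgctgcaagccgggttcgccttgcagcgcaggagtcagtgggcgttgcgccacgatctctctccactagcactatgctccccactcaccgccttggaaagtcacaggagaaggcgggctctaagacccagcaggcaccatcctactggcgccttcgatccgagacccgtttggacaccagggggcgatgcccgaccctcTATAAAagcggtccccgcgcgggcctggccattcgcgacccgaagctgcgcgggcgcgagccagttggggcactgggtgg
Cebpb: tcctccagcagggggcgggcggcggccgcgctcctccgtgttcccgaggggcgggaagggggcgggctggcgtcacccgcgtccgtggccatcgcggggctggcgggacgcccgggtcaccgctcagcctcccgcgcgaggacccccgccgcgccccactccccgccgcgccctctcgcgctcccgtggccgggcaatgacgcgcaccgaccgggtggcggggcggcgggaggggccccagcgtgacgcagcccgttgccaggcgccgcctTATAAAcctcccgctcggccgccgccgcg

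Within each library, Cebpb exceeded Cebpa per length. The TPM ratio was 5.03 in CD174, 3.57 in CD176, 3.26 in CD171, 2.66 in CD170, 2.54 in CD177 and 2.25 in CD178. Such a ratio does not depend on library scaling. Cebpb made up 63.5 to 78.5% of the summed TPM of 6 C/EBP-type genes and Cebpa 15.6 to 28.2%, the first highest and the second lowest in CD174. The other relatives were minor: Cebpg, a partner that lacks its own activation domain, took 3.19 to 5.28%, and Cebpd 2.24 to 2.72%. Cebpe, the granulocyte member, had 19 counts in CD178 and 0 in the other 5 libraries. Ddit3, the stress-induced member CHOP, was at 4.02 CPM in CD174 and reached 19.4 CPM in CD176, with a log2 range of 2.24. Of 5 listed relatives, 4 passed the filter and 1, Ddit3, had a log2 range of at least 1. That range was reached by 50.5% of all genes past the filter, and by 33.9% of those with a median of 10 to 100 CPM.

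Runx1 (ENSMUSG00000022952, chromosome 16, 92601466 to 92826149, minus strand) was at 270.9 CPM in CD170, 261.4 in CD176, 249.3 in CD177, 228.2 in CD171, 192.0 in CD178 and 158.7 in CD174. CD174 was lowest and CD178 next, and the remaining 4 lay between 228.2 and 270.9 CPM. The log2 range was 0.77 and was 0.50 without CD174. Runx1 made up 71.3 to 73.2% of the TPM of the 3 RUNX genes in 5 libraries and 64.1% in CD178, with Runx2 as the remainder almost entirely. Runx3, prominent in T and NK cells, had at most 39 counts. Cbfb, the partner of all RUNX proteins, was steady at 182.8 to 226.8 CPM, with a log2 range of 0.31. Of the 4 listed RUNX relatives and partners, 2 had a log2 range of at least 1: Runx3 (at least 1.98, with 0 counts in CD174) and Cbfa2t3 (1.11), a corepressor. The share among all genes past the filter was 50.5%.

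Irf8 (ENSMUSG00000041515, chromosome 8, 120736358 to 120756694, plus strand) was at 159.3 CPM in CD170, 148.4 in CD176, 133.0 in CD174, 124.7 in CD178, 119.3 in CD177 and 91.6 in CD171. CD171 was lowest and CD170 highest, 1.74 times as high. The intervals of these libraries (86.5 to 97.0 and 153.6 to 165.1 CPM) were apart. They cover counting error only, and the libraries were picked as the extremes, so the gap is a description of this gene. The log2 range of Irf8 was 0.80, and 0.41 without CD171 and CD174. Irf8 made up 17.0 to 21.6% of the TPM of 9 IRF genes. Irf5, which drives inflammatory cytokine genes, made up 23.7 to 30.5%, and the ratio of Irf8 to Irf5 lay between 0.612 and 0.789, below 1 in 6 of 6 libraries. That direction turned when lengths were those of the longest transcript, where the median log2 ratio was 0.17 and not -0.48, so which of them was higher is not settled. Of 7 IRF relatives past the filter, Irf4 and Irf7 exceeded a log2 range of 1, at 4.77 to 17.7 CPM and 2.701 to 9.977 CPM. Among all genes past the filter, 50.5% had a range of at least 1. Irf4, linked to alternative activation, was highest in CD176, and Irf7, an interferon-induced member, in CD174.

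Dendritic cells also express Irf8. The sum of 7 of their markers ran from 9.38 (CD174) to 20.5 CPM (CD178). Ccr7 was at 5.06 to 12.6 CPM and Clec9a at 0.149 CPM in CD174 and 2.68 to 3.24 CPM in the others, while Siglech had 0 counts in each library and Xcr1 at most 23. Zbtb46 had 0 counts in CD174 and reached 2.55 CPM in CD176. Flt3 was lowest in CD170 (0.478 CPM) and high in CD171 (3.24 CPM) and CD174 (2.98 CPM). Cd209a had 0 counts in CD171 and was highest in CD170 (1.54 CPM). Irf8 itself was highest in CD170, where the sum of these markers was 13.9 CPM, and lowest in CD171, where the sum was 15.3 CPM. The part of dendritic cells in the Irf8 level was not tested. For B cells, which also express Irf8, Bach2 and Spib, Cd79a, Cd79b, Pax5 and Ms4a1 had at most 12 counts in any library. Cd22, another B cell marker, was at 89.5 to 146.4 CPM and made up nearly all of the summed B cell markers, at 89.5 to 147.3 CPM. Spib, the lymphoid relative of Spi1, had 2 counts in CD177 and 0 elsewhere.

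Spi1 made up 78.5 to 86.7% of the summed TPM of 9 listed ETS genes, which are not the whole family, with the highest share in CD174. Its most abundant listed relatives per length were Elf4 at 61.5 to 125.4 CPM, Fli1 at 31.7 to 64.6 CPM and Elf1 at 45.6 to 75.0 CPM. Ets1, a lymphocyte member, lay between 0.849 and 4.17 CPM. Of 6 relatives past the filter, 3 (Ets1, Elf4 and Fli1) reached a log2 range of 1, and only Ets1 (1.55) did so without CD171 and CD174. The shares among all genes past the filter were 50.5%, and 16.9% without CD171 and CD174. Spic, which marks red pulp macrophages of the spleen, had at most 12 counts.

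**Figure D2:**
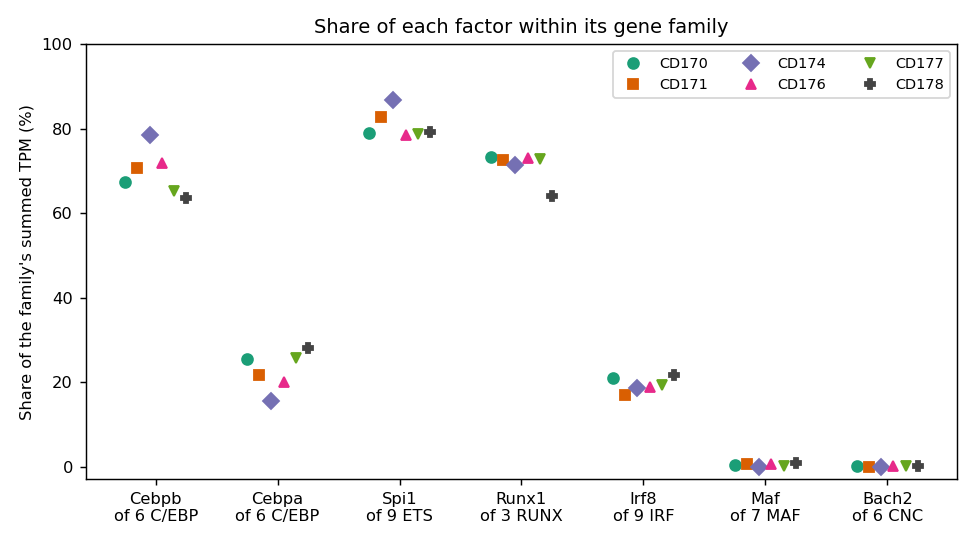
Share of each factor in the summed TPM of the listed genes of its family, in percent, with 1 symbol per library. For Spi1 these are 9 chosen ETS genes and not the whole ETS family. Cebpb, Spi1 and Runx1 each hold 63.5% or more of the TPM of their listed genes in every library, Irf8 17.0 to 21.6%, and Maf and Bach2 less than 1%.

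Of the self-renewal pair, Bhlhe40 (ENSMUSG00000030103, chromosome 6, 108660629 to 108666925, plus strand) was at 418.9 CPM in CD170, 411.1 in CD176, 287.2 in CD177, 263.0 in CD171, 237.4 in CD178 and 186.4 in CD174. CD170 and CD176 stood together at the top and CD174 was lowest, with CD170 2.25 times as high. The log2 range was 1.17, and 0.82 without CD171 and CD174, a larger range than any other of the 7 abundant factors in those 4 libraries.

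Bhlhe41 (ENSMUSG00000030256, chromosome 6, 145858243 to 145865558, minus strand) behaved otherwise. It was at 202.5 CPM in CD170, 187.8 in CD174, 141.5 in CD178, 141.1 in CD176, 139.8 in CD177 and 139.2 in CD171. CD171, CD176, CD177 and CD178 lay between 139.2 and 141.5 CPM, within their counting intervals of each other, and CD170 and CD174 stood above them. The log2 range was 0.54 and stayed at 0.53 without CD171 and CD174. Gm43909, a transcript on the opposite strand, covers 19.1% of the exon bases of Bhlhe41, so its counts carry the same strand doubt as those of Cebpb.

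The TPM ratio of Bhlhe40 to Bhlhe41 was 4.16 in CD176, 2.95 in CD170, 2.93 in CD177, 2.7 in CD171, 2.40 in CD178 and 1.42 in CD174. Bhlhe40 was the higher of the pair in 6 of 6 libraries, by the smallest factor in CD174 and the largest in CD176. Among the 21 pairs of abundant factors, Bhlhe40 and Runx1 kept the second most constant ratio, with a range of 0.45 on the log2 scale over the 6 libraries, after Spi1 and Bhlhe41 (0.38). Cebpb and Bhlhe40 had the least constant ratio, with a range of 2.181, highest in CD174 and lowest in CD170.

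**Figure D3:**
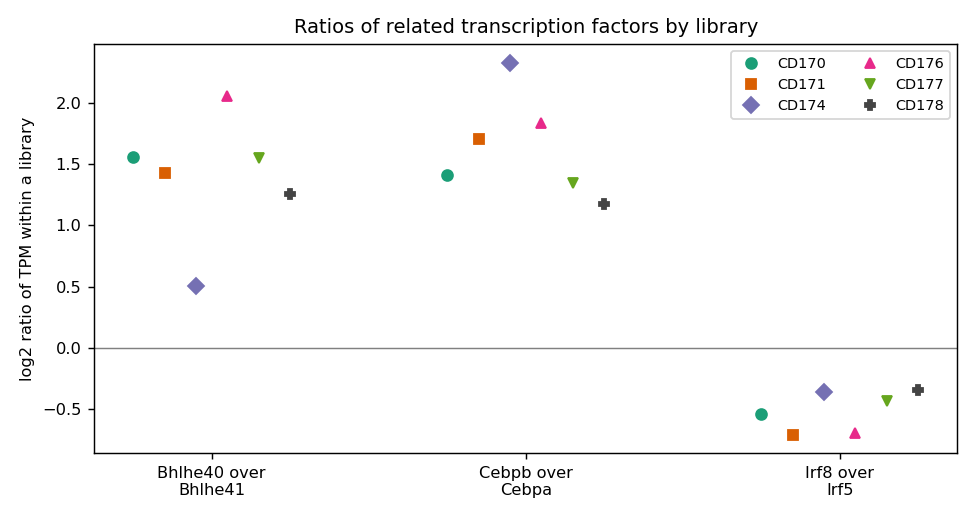
log2 ratio of TPM of related factors within each library, with 1 symbol per library and 0 marking equal levels. Bhlhe40 over Bhlhe41 runs from 0.50 in CD174 to 2.06 in CD176, and Cebpb over Cebpa from 1.17 in CD178 to 2.33 in CD174.

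Bhlhe40 and Bhlhe41 proteins bind the E-box CACGTG, and the promoter windows of Bhlhe41 and Runx1 are shown because they held this motif, which 7.15% of all windows of the same length held. It began 153 bases before the annotated start of Bhlhe41 and 71 bases before the distal start of Runx1. The Runx1 window also held AGGAAG, a core of ETS sites (35.4% of windows), 124 bases before the start, and 2 copies of the RUNX core TGTGGT in the antisense direction (16.8% of windows), which begin 28 and 36 bases after it. These matches are letters only and carry no reading of binding. The matches do not overlap each other. The windows are chr6:145865371-145865670 and chr16:92826025-92826324, both on the minus strand of GRCm38.p6 and written in the direction of transcription, with the matches in capitals.
Bhlhe41: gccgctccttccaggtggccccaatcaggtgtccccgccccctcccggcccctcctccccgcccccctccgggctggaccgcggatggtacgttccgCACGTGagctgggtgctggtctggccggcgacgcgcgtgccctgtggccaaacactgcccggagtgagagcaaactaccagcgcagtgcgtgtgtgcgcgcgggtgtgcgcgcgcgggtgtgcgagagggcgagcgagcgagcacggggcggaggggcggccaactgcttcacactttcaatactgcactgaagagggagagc
Runx1: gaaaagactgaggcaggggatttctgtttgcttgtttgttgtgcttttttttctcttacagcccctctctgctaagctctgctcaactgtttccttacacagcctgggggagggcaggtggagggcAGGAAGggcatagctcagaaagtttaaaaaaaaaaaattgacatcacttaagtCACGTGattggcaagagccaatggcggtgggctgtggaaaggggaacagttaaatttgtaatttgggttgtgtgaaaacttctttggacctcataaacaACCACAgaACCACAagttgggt

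RefSeq windows were at hand for 6 of the 9 factors, 8 windows in all. Besides those shown, the Irf8 window at its first start held TATAAA 31 bases before that start, its second window held the MAF core TGCTGA on the antisense strand (19.5% of windows), and neither the Bach2 window nor the second Runx1 window held a searched motif. The C/EBP motif TTGCNNAA (10.8% of windows), the AP-1 and MAF motif TGAGTCA (5.20%) and a repeated GAAA motif of IRF proteins (3.44%) were in none of the 8.

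Maf (ENSMUSG00000055435, chromosome 8, 115682942 to 115707794, minus strand) had 54 counts in CD178, 32 in CD171, 28 in CD176, 24 in CD170, 23 in CD177 and 0 in CD174. In CPM this was 2.47 in CD171, 2.22 in CD178, 1.83 in CD176, 1.27 in CD170, 1.12 in CD177 and 0 in CD174. The 95% intervals of the 5 libraries with counts lay between 0.712 and 3.49 CPM and mostly overlapped, but that of CD171 (1.69 to 3.49 CPM) lay just above that of CD177 (0.712 to 1.68 CPM). The 0 counts in CD174 were given the level of 3 counts, 0.447 CPM, as their limit. At the level of CD170, CD176, CD177 and CD178 together, 10.96 counts were predicted in CD174. Of the 586 genes with a prediction within a factor of 1.25 of that, 33.1% also had 0 counts in CD174.

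Within its family Maf made up at most 0.782% of the summed TPM of 7 MAF genes, and it was at 0 in CD174. The small MAF proteins, which lack an activation domain, were the most abundant members. Maff made up 39.8 to 56.7% of the family, Mafk 19.05 to 38.25% and Mafg 18.5 to 25.5%. Nrl, the retinal member, had 0 counts in each library.

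Genes known to depend on MAF proteins in macrophages were scarce as well. The 8 listed summed to 5.03 to 11.04 CPM. Il10 and Folr2 had 0 counts in each library, Lyve1 had 1 count in all, Cd163 at most 4 and F13a1 at most 10. The complement genes C1qa (1.54 to 4.44 CPM), C1qb (0 to 3.53 CPM) and C1qc (0.927 to 3.72 CPM) passed the filter, with log2 ranges of 1.45 for C1qa, at least 2.98 for C1qb (0 counts in CD174) and 1.87 for C1qc. C1qa and C1qb were highest in CD176 and C1qc in CD174.

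Genes tied to macrophage self-renewal were present in each library. Klf4 was at 83.0 CPM in CD171 and 118.2 to 196.6 CPM in the others. Klf2 lay between 16.2 CPM in CD174 and 38.1 CPM in CD170, and Myc between 50.4 CPM in CD178 and 95.9 CPM in CD177. Klf4 and Klf2 had log2 ranges of 1.24 and 1.22, and of 0.38 and 0.75 without CD171 and CD174. The range of Myc was 0.93.

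Bach2 (ENSMUSG00000040270, chromosome 4, 32238804 to 32586108, plus strand) had 58 counts in CD178, 34 in CD177, 28 in CD176, 23 in CD170, 1 in CD171 and 0 in CD174. In CPM this was 2.38 in CD178, 1.83 in CD176, 1.66 in CD177, 1.22 in CD170, 0.0772 in CD171 and 0 in CD174. The upper bound of the 95% interval in CD171 (0.430 CPM) and the limit of 3 counts in CD174 (0.447 CPM) lay below the lowest lower bound of the other 4 (0.774 CPM). Predictions from those 4 were 23.4 counts in CD171 and 12.2 in CD174. Of 575 genes with a like prediction, 13.2% had no more than 1 count in CD171, and of 575 for CD174, 29.6% had 0. Its relative Bach1, a heme-regulated repressor, was at 131.2 to 150.8 CPM in 5 libraries and 197.5 CPM in CD171. In the 4 libraries with more than 3 counts of Bach2, its TPM was 0.00568 to 0.0106 of that of Bach1. The most abundant relatives per length were Nfe2l2 (NRF2, the activator of antioxidant genes) at 212.7 to 333.2 CPM and Nfe2l1 at 176.6 to 223.7 CPM. Nfe2, an erythroid and megakaryocyte member, ran from 7.74 CPM in CD174 to 31.4 CPM in CD176. It alone of the 4 past the filter had a log2 range of at least 1, against 50.5% of all genes past the filter.

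T cells also express Bach2. Their 7 markers summed to 9.23 CPM in CD174, 4.86 in CD171, 3.78 in CD178, 3.42 in CD177, 1.76 in CD176 and 1.65 in CD170. These sums rest on few counts, and the markers differed. In CD174 Trbc2 had 32 counts (4.77 CPM) while Lck, Cd8a and Cd4 had 0. In CD171 Cd3d had 33 counts while Cd3e, Trbc2 and Cd8a had 0. No single T cell marker exceeded 33 counts, and their part in the Bach2 level was not tested.

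All 9 factors passed the count filter. Of the 12627 genes that passed, the range reached 1 in 50.5%. Of the 9 factors 4 reached it: Maf, Bach2, Cebpb (1.21) and Bhlhe40 (1.17). With 0 counts in CD174 set to the limit of 3 counts, the range was at least 2.47 for Maf and at least 2.41 for Bach2. The share depends on level. It was 88.9% among genes with a median of 1 to 10 CPM, the class of Maf and Bach2, and 33.9% among those at 10 to 100 CPM. Among those over 100 CPM it was 12.3%, and 2 of the 7 abundant factors passed. The median log2 range of the 9 was 0.80, against 1.01 for all genes. The median of the 7 abundant factors was 0.77, against 0.58 for their class. Without CD171 and CD174 none of the 9 had a log2 range of at least 1, against 16.9% of 12238 genes (40.2% of those at 1 to 10 CPM and 1.25% of those over 100 CPM), and the largest ranges were Maf (0.92), Bach2 (0.91) and Bhlhe40 (0.82).

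**Figure D4:**
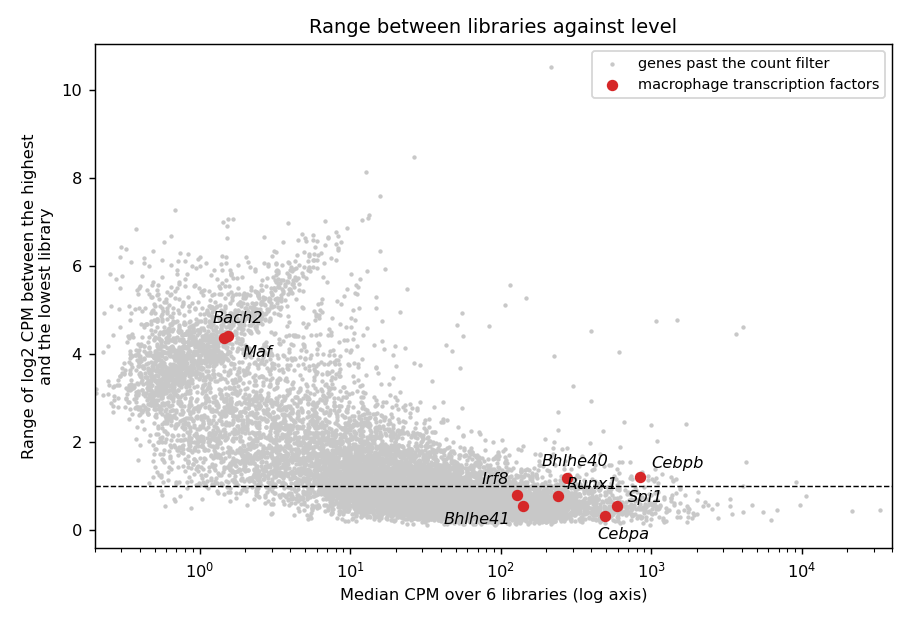
Range of log2 CPM between the highest and lowest of the 6 libraries (vertical axis) against median CPM (log axis), for the 12627 genes past the count filter in grey and the 9 factors in red; the dashed line marks a range of 1. Maf and Bach2 lie among the scarce genes above the line, where the drawn height of a gene with 0 counts in a library is set by the prior count of 2, and of the abundant factors Cebpb and Bhlhe40 lie above the line.

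The libraries at the extremes recurred. CD170 was the highest library for Bhlhe40, Bhlhe41, Irf8 and Runx1 and the lowest for none. CD174 was highest for Spi1 and Cebpb and lowest for Bhlhe40, Runx1, Maf and Bach2. CD176 was neither highest nor lowest for any. CD174 also had the highest epithelial marker sum and the largest share of counts in the 4 transcripts named above, and their part in its levels of Spi1, Bhlhe40, Runx1, Maf and Bach2 was not tested. With DESeq2 size factors, and with scaling that left the 4 transcripts out, the highest libraries were the same for the 9 factors. By total counts CD176 was highest for Bhlhe40 (427.1 against 425.3 CPM in CD170) and CD174 lowest for Cebpa (438.0 CPM). The median gene was 0.10 lower in CD174 than in the median of the others on the log2 scale, and 0.35 lower by total counts. Against the median of the other 5 libraries, CD174 was 1.01 higher in log2 CPM for Cebpb, 0.41 for Bhlhe41 and 0.40 for Spi1, and its differences for Runx1 and Bhlhe40 were -0.65 and -0.62. By total counts those 5 differences were 0.79, 0.15, 0.17, -0.93 and -0.90, so each kept its direction. Those of Cebpa (0.08) and Irf8 (0.09) turned negative by total counts (-0.18 and -0.16).

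**Figure D5:**
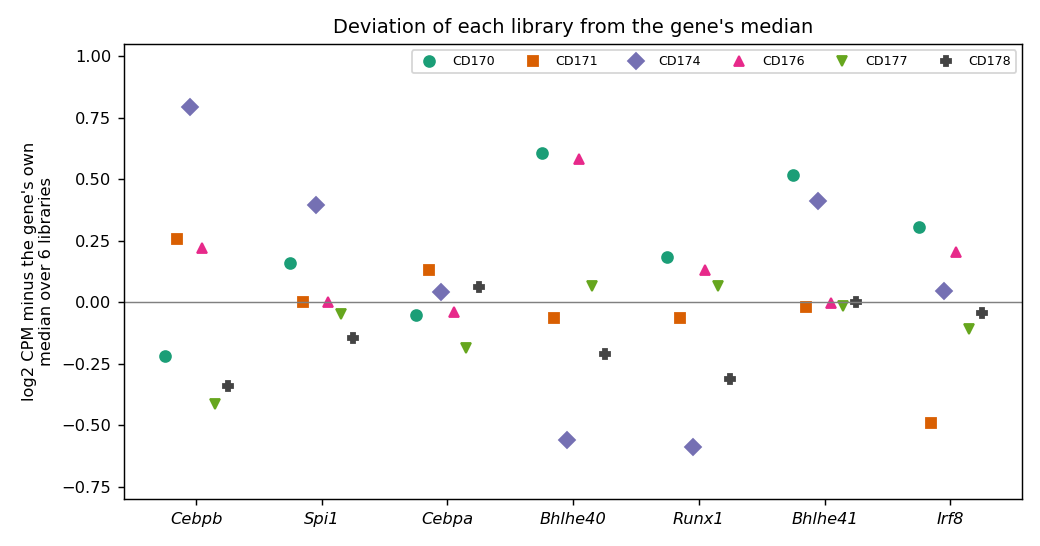
log2 CPM of the 7 abundant factors in each library minus the gene's own median over the 6 libraries; symbols are libraries and the line marks 0. CD174 is highest for Cebpb (0.80) and Spi1 (0.40) and lowest for Bhlhe40 (-0.56) and Runx1 (-0.59), while CD171 is lowest for Irf8 (-0.49).

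Other genes with the most similar profile were found by the root mean square difference of centred log2 CPM over the 6 libraries, among genes with a log2 range of at least 0.5. The 3 nearest to Spi1 were Arid2 (0.024), Bahd1 (0.030) and Zbtb7a (0.031). For Irf8 they were Fblim1 (0.040), Prr5l (0.057) and Nfe2l2 (0.083). For Runx1 they were Nf1 (0.038), Ezh1 (0.062) and Kctd7 (0.062), and for Bhlhe41 Jup (0.078), Ifitm10 (0.084) and Cnpy3 (0.085). Profiles were less closely matched for Cebpb, with Rusc1 (0.099), Tnni2 (0.104) and Rgs10 (0.106), and for Bhlhe40, with Rarg (0.099), Rgl3 (0.128) and Sesn2 (0.135). None is given for Cebpa, whose own range lies under that limit, or for Maf and Bach2, which have a library at 0. Over 6 points and 12627 genes, close profiles are a description of these libraries.

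Other transcription factors of alveolar macrophages accompanied the 9. Of 12 listed, all passed the filter and 4 had a log2 range of at least 1, against 50.5% of all genes past the filter. Their median range was 0.73, against 1.01 for all genes. All 12 had medians over 10 CPM, where ranges are smaller. The class at 10 to 100 CPM had a median range of 0.80 and a share of 33.9%. The class over 100 CPM had 0.58 and 12.3%. Pparg, the nuclear receptor required for their development, was at 179.1 to 250.2 CPM and its partner Rxra at 256.9 to 445.2 CPM. Id2, an inhibitor of helix-loop-helix proteins, was at 44.0 CPM in CD171 and 92.0 to 116.6 CPM in the others, and Egr2 ran from 118.5 to 239.2 CPM with CD176 highest. Without CD171 and CD174 only Egr2 (1.01) kept a log2 range of at least 1. The share was then 16.9% of all genes past the filter and 1.25% of those over 100 CPM. Klf4 and Klf2 are the remaining pair of the 4.

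Factors that mark macrophages of other tissues were scarce, with exceptions. Sall3 had 0 counts in each library, Sall1 (microglia) at most 8 and Gata6 (peritoneal macrophages) at most 16. Tfeb, a lysosomal regulator used by many cells, was the highest per length at 63.7 to 142.4 CPM. Id3, a Kupffer cell factor in mice, was at 21 CPM in CD174 and 5.41 to 7.45 CPM in the others. Nr4a1, a factor of patrolling monocytes, ran from 6.48 CPM in CD171 to 22.3 CPM in CD174. Mef2c and Rarb had 0 counts in CD174, Rarb also in CD171, and they reached 5.34 and 2.48 CPM elsewhere. These 5 of 9 passed the filter, with log2 ranges of 1.16 for Tfeb, 1.77 for Nr4a1, 1.93 for Id3, at least 3.42 for Rarb and at least 3.58 for Mef2c. Of all genes past the filter, 50.5% had a range of at least 1.

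Of 14 myeloid genes known as targets of PU.1 and C/EBP proteins, all passed the filter and 6 had a log2 range of at least 1, with a median of 0.90. Of all genes past the filter 50.5% had such a range. The share was 33.9% at medians of 10 to 100 CPM and 12.3% over 100 CPM. Fcgr3, an Fc receptor, was at 186.9 CPM in CD171, 322.7 in CD174 and 485.2 to 512.3 CPM in the others, and Fcgr1 was also lowest in CD171 (42.1 CPM). Csf2ra, the GM-CSF receptor chain, was steady at 330.1 to 389.4 CPM. Cd68 ran from 435.9 to 888.7 CPM, Cd14 from 94.6 to 197.8 CPM and Msr1, a scavenger receptor, from 11.1 to 30.3 CPM. Itgam, the integrin CD11b of monocytes and neutrophils, had 3 to 65 counts. Without CD171 and CD174 only Itgam (2.36) and Msr1 (1.35) had a log2 range of at least 1, against 16.9% of all genes past the filter.

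Monocytes and neutrophils also express Spi1 and both C/EBP genes. The sum of 6 monocyte markers ran from 18.3 (CD171) to 44.7 CPM (CD174), with Ccr2 at 10.5 to 22.2 CPM and Ly6c2 at 1 count in all. The 9 neutrophil markers summed to 9.73 to 20.3 CPM, with S100a8 at 5.62 to 13.85 CPM and Cxcr2 at 3.61 to 8.83 CPM in every library, and Ly6g and Elane had 0 counts in each. Both sums were highest in CD174, where Cebpb and Spi1 were highest, but the markers differed. In CD174 Ccr2, Nr4a1 and S100a8 were at their highest, while Cx3cr1, Plac8, F13a1, S100a9, Retnlg, Camp, Ngp and Mpo had 0 counts there. Cxcr2 was highest in CD177, and Retnlg (76 counts) and S100a9 (11 counts) in CD178. The part of these cells in the levels of Cebpb and Spi1 was not tested.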

How the data were processed

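RNA of lavage cells was sequenced. The values are unnormalized read counts for each gene, as deposited by the authors. The submitters' processing notes name HTSeq 0.11.2, STAR 2.7.1a, bcl2fastq 2.18.0.12, Trim Galore 0.6.2 and build GRCm38. The strand setting and annotation release are not given in sources used here. Of 48795 gene IDs, 48435 were found in GENCODE M21 when the version was ignored, and the versions of Irf8 and Runx1 differed. The 5 summary rows that name no gene, 18.8 to 46.0% of all counts, were left out of library sizes.

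Counts were scaled with edgeR 4.0.16 (trimmed mean of M-values, R 4.3.3), and log2 CPM used a prior count of 2. Other steps used scipy 1.17.1, pandas 2.3.3, matplotlib 3.10.9 and numpy 2.4.6 in Python 3.11.15. DESeq2 1.42.0 size factors, total counts, scaling without 4 transcripts, a prior of 0.5, no filter, other gene lengths and leaving out libraries were alternatives; TPM without the 4 transcripts was added after seeing the data. No test between groups was run, since no library has one. A chi-square check of the 15 library pairs, made only to find duplicate deposits, found none (lowest ratio to its degrees of freedom 19.4). Intervals and the limit of 3 counts for a count of 0 cover counting error only.

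Genes named are the 9 factors, genes from 19 other lists and the 3 nearest profiles of a factor. From each list the rule took the 3 with the highest median TPM and those with 0 counts throughout. It also took up to 5 with the largest log2 range of at least 1. Not every gene under this rule is named, and further names were picked with their values in view. The factors, lists and thresholds were chosen with earlier results of these data known. On simulated data for 12627 genes, 200 planted log2 ranges of 1, 2 and 3 were recovered with medians of 1.06, 2.06 and 3.06. Those counts were drawn with counting error only. Ranges were planted only in genes with more expected counts in CD174 than Maf or Bach2, so the check does not cover this pair. Motifs were searched on both strands (TATAAA on the sense strand) in RefSeq windows of GRCm38.p6, whose last 25 bases all matched a GENCODE transcript of their gene in the sense direction. Some items are not reported here.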

Additional observations from a re-analysis of the deposited data

Results flagged for a closer look

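Dixon's ratio was computed over the 6 libraries for the 106 genes of the 9 factors and the other lists that passed the count filter and for 3 ratios of related factors. In 19 of these 109 values 1 library lay so far from the nearest other that the gap, as a share of the whole range, exceeded the 95% critical value. Chance marks about 1 in 20 unselected sets, but these genes are not such sets: they share libraries, and some lists were chosen with these data known. None of the 9 factors was among the 19. Among their relatives, Elf1 was at 45.6 CPM in CD174, below the 65.1 CPM of the next library, and Bach1 was at 198 CPM in CD171, above 151 CPM. Among other transcription factors, Id2 was at 44.0 CPM in CD171, below 92.0 CPM. Mitf was at 50 CPM in CD171, below 60.1 CPM, and Id3 at 21 CPM in CD174, above 7.45 CPM. Itgam was at 2.67 CPM in CD178, above 1.045 CPM. Of the alveolar macrophage markers, Marco was at 604 CPM in CD174, above 369.6 CPM, and Siglecf at 428 CPM there, below 508 CPM. CD174 was also apart for other cell markers: S100a8 was at 13.8 CPM, above 8.39 CPM, Cd3g at 2.68 CPM, above 0.781 CPM, and Clec9a at 0.149 CPM, below 2.68 CPM. Its epithelial genes were highest, with Sftpc at 1600 CPM, Scgb1a1 at 963 CPM, Sftpa1 at 216 CPM, Sftpb at 114 CPM and Nkx2-1 at 11.5 CPM, against 254, 121, 48.3, 34.4 and 3.85 CPM in the next library. CT010467.1 (56800 CPM), Gm23935 (22800 CPM) and Gm26917 (665 CPM) were highest in CD174 as well. No difference between groups was examined, since the labels used here give none.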

How the results depend on the processing

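No paired analysis was possible because the labels used here put the libraries in no group. The count of factors with a log2 range of at least 1 was 4, and 3 to 4 with DESeq2 size factors, total counts, scaling without the 4 transcripts, a prior of 0.5 or no filter; it was 2 to 4 with any single library left out, 2 (Maf and Bach2) without CD174, and 0 without CD171 and CD174. The share of genes past that range was 50.5%; it was 31.0% without CD174 and 16.9% without CD171 and CD174, and 31.0 to 47.4% over the 6 fits that each lacked 1 library. Of the 9 places in the order by median TPM, 6 were kept with the longest annotated transcript, 7 without CD171 and CD174, and 5 to 7 without any 1 library. The places that changed were among Bhlhe41, Runx1 and Irf8 and between Maf and Bach2. The log2 TPM ratio of Irf8 over Irf5 was -0.48 and turned to 0.17 with the longest transcript. The ratios of Bhlhe40 over Bhlhe41, Cebpb over Cebpa, Bach2 over Bach1 and Runx1 over Runx3 kept their sign. The cause was not tested. Maf and Bach2 rest on at most 58 counts in a library, and their log2 ranges, fitted against 0 counts in CD174, were set by the prior count (4.41 and 4.36 with 2, 6.36 and 6.31 with 0.5).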
